A study of Mus musculus with 9 samples.

Results

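The Klf9 regions described here lie at CpG-island promoters of mouse heart chromatin. They are the merged regions of the deposited table with at least 1 CpG island and exactly 1 promoter, a rule that uses annotation and not the measured signal. A total of 2845 of 5238 merged regions met it. A further 1164 had at least 1 CpG island and more than 1 promoter. They are named shared CpG-island promoters below, a name that stands for these counts alone. The rest were 511 regions at promoters without a CpG island and 718 away from promoters. Bound chromatin was measured with a Klf9 antibody in 1 library of hearts after TAC (surgical narrowing of the aorta, which loads the heart with pressure, for 2 weeks) and in 1 library of sham-operated hearts, from mice of 12 to 14 weeks, beside an input pooled from sham and TAC. RNA was measured in hearts that carry alphaMHC-Cre and the Klf9KI transgene and in Wt-Cre hearts, which carry alphaMHC-Cre alone, at 1, 4 and 8 weeks, with 3 libraries per group. The alphaMHC promoter drives Cre in cardiomyocytes, so both RNA groups express Cre there. The strain, sex and litter of the mice were not given in the sources used here. In whole hearts, fewer cells of a type and less RNA per cell cannot be told apart.

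Klf9 belongs to the Krueppel-like transcription factors, which bind through zinc fingers to GC boxes and the related CACCC-type boxes that CpG-island promoters carry in large numbers. It is known as a repressor of transcription that recruits the Sin3A corepressor, and its own gene responds to glucocorticoids and to the circadian clock. CpG islands are stretches of CpG-rich DNA that mostly stay free of methylation and hold the promoters of most housekeeping genes.

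The 4 regions of highest sham signal whose nearest gene has an overlapping promoter window are shown first, followed by 4 genes on which the RNA results turn. Each sequence is the RefSeq window of GRCm38.p6, the assembly named mm10 elsewhere, with 250 bases before and 50 after the gene start, written 5′ to 3′ on the strand of the gene. Capitals mark CACGCCC on either strand, which reads GGGCGTG on the other, a 7-base form of the CACCC-type box.
Armc7, chr11:115475417-115475716, plus strand: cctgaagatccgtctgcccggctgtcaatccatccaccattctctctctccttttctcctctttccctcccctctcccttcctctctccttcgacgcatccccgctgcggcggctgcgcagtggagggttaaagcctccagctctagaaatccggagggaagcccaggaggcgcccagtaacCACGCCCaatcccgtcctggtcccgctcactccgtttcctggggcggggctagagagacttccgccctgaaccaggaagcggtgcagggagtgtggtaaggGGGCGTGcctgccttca
Anapc7, chr5:122422194-122422493, plus strand: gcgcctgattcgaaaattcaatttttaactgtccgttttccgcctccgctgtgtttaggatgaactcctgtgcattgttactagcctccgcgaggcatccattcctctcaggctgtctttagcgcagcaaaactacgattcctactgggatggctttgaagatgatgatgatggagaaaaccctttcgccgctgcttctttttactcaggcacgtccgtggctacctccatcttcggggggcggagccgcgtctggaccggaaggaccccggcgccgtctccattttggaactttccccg
Csk, chr9:57645604-57645903, minus strand: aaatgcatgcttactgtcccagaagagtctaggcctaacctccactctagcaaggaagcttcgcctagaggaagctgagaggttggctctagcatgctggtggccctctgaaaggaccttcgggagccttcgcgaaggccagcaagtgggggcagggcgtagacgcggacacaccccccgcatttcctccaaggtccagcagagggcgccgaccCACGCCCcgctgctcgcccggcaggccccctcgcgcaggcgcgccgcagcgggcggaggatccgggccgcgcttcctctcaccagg
Tfip11, chr5:112326119-112326418, plus strand: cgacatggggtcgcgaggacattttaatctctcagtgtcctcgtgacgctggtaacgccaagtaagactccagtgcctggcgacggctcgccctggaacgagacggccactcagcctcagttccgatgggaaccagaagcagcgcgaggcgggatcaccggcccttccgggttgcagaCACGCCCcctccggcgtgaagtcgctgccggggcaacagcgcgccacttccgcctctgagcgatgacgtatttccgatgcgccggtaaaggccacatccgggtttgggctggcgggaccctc
Acads, chr5:115119297-115119596, minus strand: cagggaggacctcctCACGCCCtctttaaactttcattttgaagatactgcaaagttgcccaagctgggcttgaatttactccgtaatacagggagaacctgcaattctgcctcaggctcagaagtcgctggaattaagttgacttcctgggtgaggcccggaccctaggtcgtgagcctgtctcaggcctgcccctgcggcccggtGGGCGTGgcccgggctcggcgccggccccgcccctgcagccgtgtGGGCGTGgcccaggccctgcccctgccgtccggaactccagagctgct
Sccpdh, chr1:179667981-179668280, plus strand: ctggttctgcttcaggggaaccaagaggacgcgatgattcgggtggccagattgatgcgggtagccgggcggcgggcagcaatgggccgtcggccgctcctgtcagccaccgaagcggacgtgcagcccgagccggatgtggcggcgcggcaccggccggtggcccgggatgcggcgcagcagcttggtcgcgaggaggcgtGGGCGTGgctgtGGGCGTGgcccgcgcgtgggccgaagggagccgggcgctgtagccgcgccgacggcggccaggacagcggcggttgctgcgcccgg
Slc2a1, chr4:119108495-119108794, plus strand: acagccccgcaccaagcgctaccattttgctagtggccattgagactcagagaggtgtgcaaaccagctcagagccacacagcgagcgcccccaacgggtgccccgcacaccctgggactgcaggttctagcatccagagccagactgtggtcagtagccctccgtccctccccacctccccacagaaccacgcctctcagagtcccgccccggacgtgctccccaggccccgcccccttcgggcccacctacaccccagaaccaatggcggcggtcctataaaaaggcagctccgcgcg
Klf9, chr19:23140976-23141275, plus strand: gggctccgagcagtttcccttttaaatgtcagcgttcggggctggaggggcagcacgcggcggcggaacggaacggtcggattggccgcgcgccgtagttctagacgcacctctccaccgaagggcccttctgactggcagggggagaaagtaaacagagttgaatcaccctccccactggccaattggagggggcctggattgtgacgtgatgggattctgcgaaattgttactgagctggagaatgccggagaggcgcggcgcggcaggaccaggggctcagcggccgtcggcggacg

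The 7 letters occurred 3 times in the window of Acads, 2 times each in those of Armc7 and Sccpdh, and 1 time each in those of Csk and Tfip11. They were in none of the windows of Anapc7, Slc2a1 and Klf9. The Klf9 region covered 192 bases of the Klf9 window and the Slc2a1 region 239 of that of Slc2a1, and the regions covered all 300 bases of the other 6 windows.

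The regions sat close to gene starts. The deposited distance at the Klf9, Anapc7 and Sccpdh regions was that of the middle of the region. Distances are therefore read throughout as those of region middles. The median distance to the nearest start was 137 bases (interquartile range 59 to 338), against 100 bases at shared CpG-island promoters and 541 bases at promoters without a CpG island. A start lay within 100 bases of the middle of 1140 regions (40.1%), within 500 bases of that of 2396 (84.2%) and within 1000 bases of that of 2667 (93.7%). Region middles were placed about evenly on both sides, with 1432 upstream of the start, 1411 downstream and 2 at it, and the farthest lay 7562 bases away. A region whose middle lies upstream or downstream can still cover the start. The authors' promoter count is matched in 99.084% of all regions by a window of 7500 bases before to 2500 bases after a start, so a region far from a start can still be a promoter region by their rule. The median length was 385 bases (interquartile range 297 to 508), against 412 at shared CpG-island promoters, 320 at promoters without a CpG island and 317 away from promoters.

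**Figure D1:**
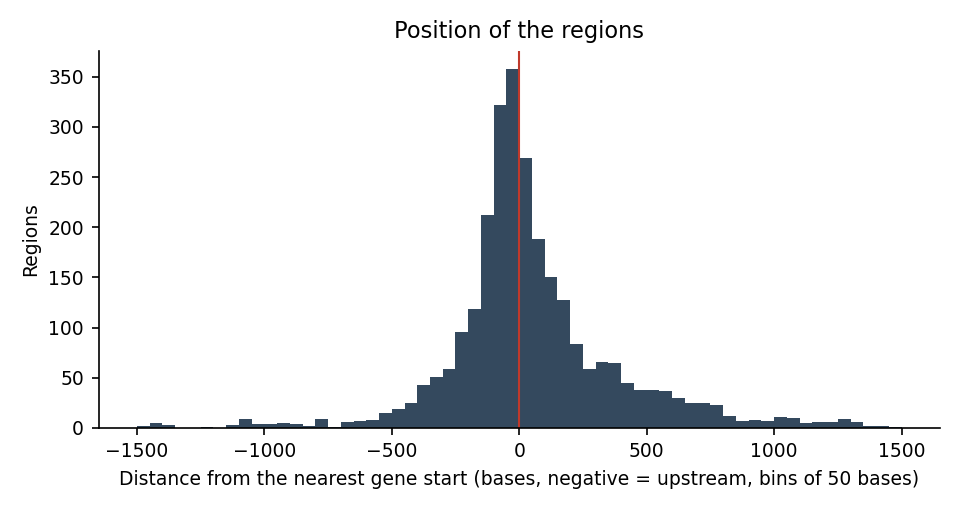
Number of single CpG-island promoter regions (vertical axis) by signed distance of the region middle from the nearest gene start in bases (horizontal axis, negative is upstream, bins of 50 bases), with the start as a red line. The distribution peaks at the start, and regions more than 1500 bases away are not drawn.

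Klf9 signal was of like height in the TAC and the sham library. Avg Value, the deposited mean signal over a region, had a median of 23.22 in TAC (interquartile range 18.5 to 30.61, range 5.125 to 110.1) and 24.8 in sham (20 to 31.88, range 6.375 to 113.6). Peak Value, the highest signal within a region, had a median of 31 in TAC and 33 in sham, with maxima of 258 in TAC and 265 in sham. The other classes lay close, with median Avg Values of 23.5 in TAC and 25.31 in sham at shared CpG-island promoters, 23.0 in TAC and 24.0 in sham at promoters without a CpG island, and 22.81 in TAC and 23.73 in sham away from promoters. How the authors scaled the libraries to each other was not stated, and each condition had 1 library, so no difference between TAC and sham could be tested here.

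The highest sham signal lay at Armc7, a gene of an armadillo-repeat protein (chr11:115475320-115476089, its middle 27 bases inside the gene). Armc7 had an Avg Value of 110.1 in TAC and 113.6 in sham and a Peak Value of 258 in TAC and 265 in sham. Anapc7, a subunit of the anaphase-promoting complex, had an Avg Value of 93.65 in TAC and 100.1 in sham (chr5:122421920-122422545). Csk, the kinase that holds Src-family kinases inactive, had 102.4 in TAC and 98.77 in sham (chr9:57645432-57645962). Of the 10 regions of highest sham signal, Csk was the only one with a higher Avg Value in TAC, while Peak Value was higher in TAC at Anapc7, Csk, Tfip11, Dscc1, Ccdc90b and Spryd7. Dbp, a clock-output transcription factor, had 86.82 in TAC and 97.71 in sham in a region 771 bases inside the gene. Tfip11, a splicing protein, had 89.1 in TAC and 97.7 in sham. The other 5 of the 10 were at BC052040, Dscc1 (a clamp-loading factor for sister-chromatid cohesion), Numa1 (a mitotic spindle protein), Ccdc90b and Spryd7, with 76.17 to 90.08 in TAC and 86.32 to 93.44 in sham. All 10 had a presence call in both libraries.

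The TAC value was below the sham value in 1776 regions (62.4%), above it in 1053 (37.0%, exact binomial 95% interval 35.2 to 38.8%, counting error only) and equal in 16, and over all 5238 regions it was also above in 37.0%. The median log2 ratio of TAC to sham was -0.11 (interquartile range -0.37 to 0.13), against -0.12 over all regions. A total of 142 regions were more than 1.5-fold higher after TAC, 4.99% of the class against 5.63% of all regions. A total of 341 were more than 1.5-fold lower, 12.0% against 12.9%. Both shares were near those of all regions, and with the ratios recentred on the median of all regions the counts were 217 higher and 224 lower.

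The larger ratios lay at weak regions. Of 4 equal groups by mean signal, the lowest had 294 of 713 regions (41.2%) past 1.5-fold in either direction. The count was 114 (16.1%) and 60 (8.4%) in the next groups and 15 of 708 (2.12%) in the highest. Presence calls, the authors' mark that a region held a peak in a library, depend on the signal of that library. The medians by call therefore follow in part from the calls and are no separate evidence. Both libraries had a call in 1944 regions (68.3%), where the median Avg Value was 26.9 in TAC and 28.15 in sham. TAC alone had a call in 302 regions (10.6%), with medians of 21.25 in TAC and 15.12 in sham, and sham alone in 599 (21.1%), with 14.62 in TAC and 21.29 in sham. Across the 2845 regions the log2 Avg Values of the libraries had a Pearson r of 0.74 and a Spearman rho of 0.717, and Peak Values an r of 0.848, over points that share the merged region boundaries and the pooled input. Longer regions had more signal, with an r of 0.528 between log2 sham Avg Value and log2 length.

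**Figure D2:**
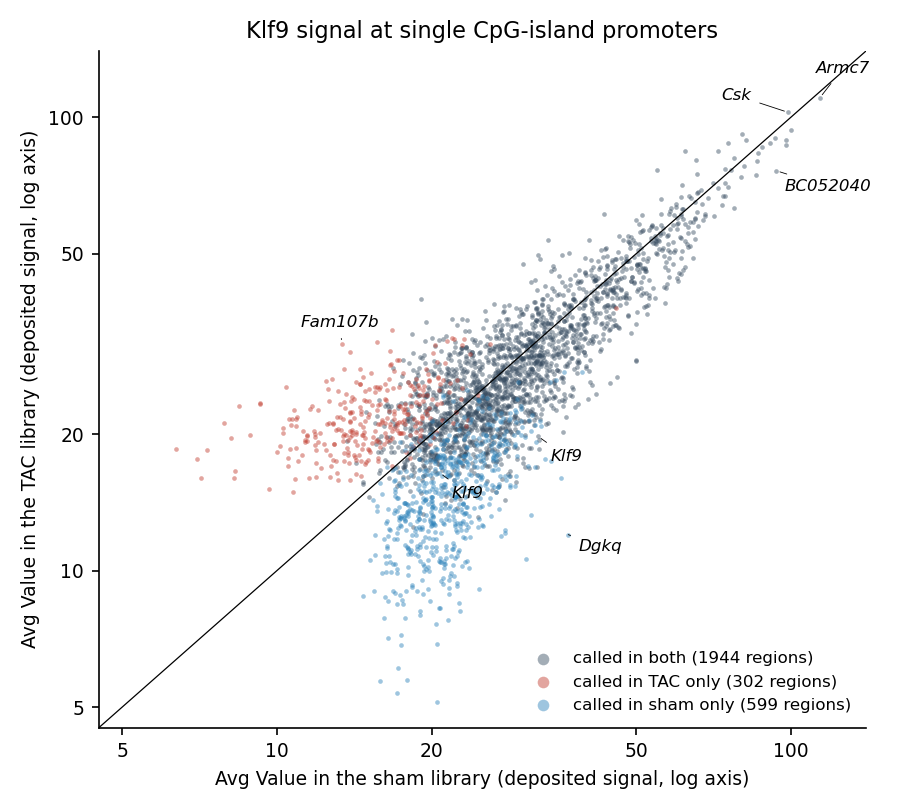
Avg Value (deposited signal, log axes) in the TAC library (vertical) against the sham library (horizontal) for the 2845 single CpG-island promoter regions, with the line of equal values. Regions called in both (grey, 1944) follow the line up to Armc7, those called in TAC only (red, 302) and in sham only (blue, 599) lie off it at low values.

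The 5 largest ratios toward TAC, among regions with an Avg Value of at least 23.875, the median over all regions and both libraries, in TAC or sham, were at Cd200 (an inhibitory surface glycoprotein), Fam107b, Ap1ar, Sub1 (a transcription coactivator) and Zfp395. Cd200 had an Avg Value of 25.43 in TAC and 10.43 in sham, Fam107b had 31.62 in TAC and 13.38 in sham, and Zfp395, the only one of these 5 with a call in both libraries, had 39.6 in TAC and 19.1 in sham. The 5 largest toward sham were at Dgkq (a diacylglycerol kinase), Ube2s (a ubiquitin-conjugating enzyme of the anaphase-promoting complex), Hhat (which attaches palmitate to Hedgehog ligands), Acvr2a (an activin receptor) and Saysd1, all called in sham alone. Dgkq had 12.0 in TAC and 36.86 in sham, and Ube2s 10.62 in TAC and 30.5 in sham. The RNA of none of these 10 genes passed the test between Klf9KI and Wt-Cre hearts at any age, with adjusted p-values between 0.138 and 0.999 in edgeR's quasi-likelihood test with Benjamini-Hochberg adjustment. Of all genes tested 1.68%, 13.4% and 10.5% passed at 1, 4 and 8 weeks, and 10 genes are too few to set against these shares.

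Several genes held more than 1 of the regions. Of 2653 nearest genes, 164 had 2 regions and 14 had 3. Dbp had 3, with an Avg Value of 15.19 in TAC and 20.88 in sham at 233 bases upstream, 86.82 in TAC and 97.71 in sham at 771 bases inside, and 40.2 in TAC and 47.47 in sham at 1706 bases inside. Its strongest region was therefore inside the gene and not over the start. Klf9 itself had 2, with 19.8 in TAC and 32.13 in sham at 299 bases upstream (chr19:23140688-23141167), and 16.44 in TAC and 20.69 in sham at 322 bases inside (chr19:23141281-23141816). The log2 ratio of TAC to sham was -0.70 at the upstream Klf9 region and -0.33 at the inner one.

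Klf9 signal went with the CACGCCC letters in the promoter window. Of the 2845 regions, 1779 overlapped a RefSeq window of their nearest gene, in 1774 windows with a median GC content of 65.0%, against 52.7% over all 32851 windows. CACGCCC was in 652 of the 1774 windows (36.8%, exact binomial 95% interval 34.5 to 39.0%), against 8.44% of all windows and 18.6% of the 9410 windows at or above the lower quartile of GC content of the class. In 4 equal groups of regions by sham Avg Value, lowest to highest, it was in 22.4%, 30.6%, 34.9% and 58.9% of windows, while the median GC content was 66.0%, 64.3%, 65.3% and 64.7%. The binomial interval was 18.6 to 26.6% in the lowest group and 54.1 to 63.5% in the highest, for counting error only. The order of the groups was not tested, since the regions come from 1 library. Groups by TAC Avg Value gave 23.1%, 27.4%, 36.7% and 59.7%. At shared CpG-island promoters, which are other regions of the same libraries, the shares were 16.4%, 18.1%, 34.5% and 50%.

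Read the other way, regions without the letters in the window had a median Avg Value of 22.12 in TAC and 24.2 in sham (1127 regions). Those with 1 match had 26.31 in TAC and 28.07 in sham (465 regions), and those with 2 or more 32.58 in TAC and 33.62 in sham (187 regions). The classical GC box showed no such order. GGGCGG was in 84.7% of windows, against 35.7% of all windows and 81.0% of the windows of high GC content, and in the 4 groups by sham signal in 84.2%, 87.6%, 86.5% and 80.4%. Only 23 of 898 CACGCCC matches overlapped a GGGCGG match. The shorter CACCC was in 66.3% of windows, against 57.5% of all windows and 70.3% of those of high GC content.

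**Figure D3:**
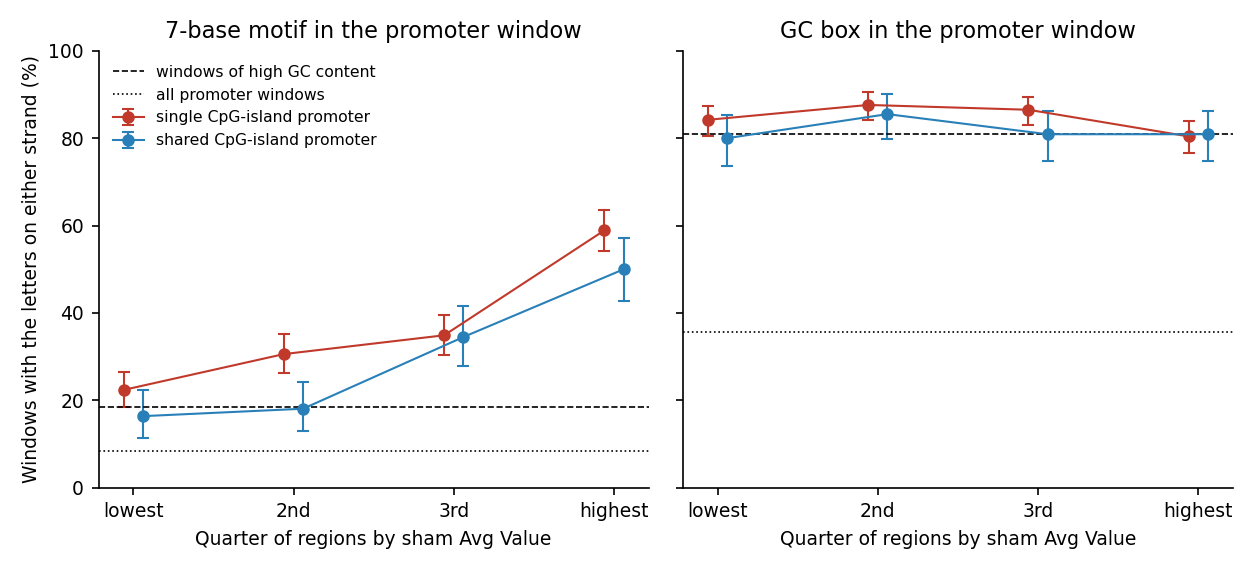
Share of promoter windows in percent (vertical axis) with CACGCCC on either strand (left, the 7-base motif) or GGGCGG (right, the GC box) in 4 equal groups by sham Avg Value (horizontal axis, lowest to highest), for regions at single CpG-island promoters (red) and at shared ones (blue). Bars are exact binomial 95% intervals, the dashed line is all windows of high GC content and the dotted line all windows; the red points on the left run between 22.4% and 58.9%, and on the right between 80.4% and 87.6%.

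Other core-promoter letters were counted on both strands in the same windows, beside the 9410 windows of high GC content and all windows. CCGGAAG, the core of ETS-factor sites, was in 22.2% of member windows, against 16.5% of the windows of high GC content and 8.86% of all windows. AANATGGC, a form of the YY1 site, was in 10.5%, against 6.79% at high GC content and 6.05% of all. CCAAT was in 37.7%, against 31.4% at high GC content and 37.4% of all. CACGTG, the E-box of clock and Myc proteins, was in 12.5%, against 10.9% at high GC content and 7.15% of all. The palindrome of NRF1 sites was in 2.31%, against 2.06% at high GC content and 0.971% of all, and TGACGTCA, the cAMP-response element, in 3.55%, against 3.0% and 1.79%. The direction for the TATAAA box depended on the comparison, with 5.36% of member windows against 3.17% of those of high GC content and 13.6% of all windows.

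The deposited lists assign 3574 gene symbols to the regions, of which 3494 matched a gene. A total of 1885 regions listed 1 gene. The number of these genes with a tested RNA level was 3275 in the hearts of 1 week, 3226 in those of 4 weeks and 3233 in those of 8 weeks. The targeted gene was checked first. Klf9 had 192.9, 222.0 and 182.8 CPM (counts scaled to library size) in Klf9KI hearts and 23.22, 21.9 and 17.17 CPM in Wt-Cre hearts at 1 week. The libraries did not overlap, and the log2 rise of Klf9 was 3.26 (SE 0.132, adjusted p = 3.55e-09 in edgeR's quasi-likelihood test). At 4 weeks Klf9 had 143.2, 178.9 and 167.4 CPM in Klf9KI hearts and 112.9, 142.5 and 123.2 CPM in Wt-Cre hearts, a log2 fold change of 0.37 that did not pass (adjusted p = 0.111 in edgeR). At 8 weeks it had 108.1, 121.8 and 111.3 CPM in Klf9KI hearts and 43.78, 65.64 and 40.58 CPM in Wt-Cre hearts, a rise of 1.19 (SE 0.212, adjusted p = 0.00594 in edgeR).

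Member genes changed somewhat less often than all genes tested at 4 and 8 weeks and more often at 1 week. At each age more of them fell than rose. At 4 weeks 377 of 3226 (11.7%) passed an adjusted p of 0.05 in edgeR, against 13.4% of all genes. A total of 260 fell (8.06%, against 6.75% of all genes) and 117 rose (3.63%, against 6.65%). At 8 weeks 283 of 3233 passed (8.75%, against 10.5%), with 167 lower (5.17%, against 5.52%) and 116 higher (3.59%, against 4.96%). At 1 week 81 of 3275 passed (2.47%, against 1.68%), with 60 lower (1.83%, against 1.03%) and 21 higher (0.641%, against 0.651%). The median log2 fold change, in order of age, was -0.05, -0.05 and 0.05, against -0.01, 8.91e-05 and 0.04 over all genes. The genes were expressed above the average gene, with a median of 6.03 FPKM at 4 weeks against 4.19 FPKM over all genes tested. In the most expressed of 5 equal groups of genes at 4 weeks 131 of 927 member genes passed (14.1%), against 17.6% of all genes in that group. At 1 week 0%, 0.893%, 2.04%, 3.64% and 2.76% of member genes passed in such groups, least to most expressed. For all genes the shares at 1 week were 0.19%, 0.916%, 1.71%, 3.13% and 2.46%. The 2 most expressed groups of 1 week held 28.5% and 31.0% of member genes. Genes of the other region classes leaned downward too, except away from promoters at 8 weeks. Falls made up 69.0% of member calls at 4 weeks, 67.1% at shared CpG-island promoters, 69.9% at promoters without a CpG island and 74.5% away from promoters. In the same order the shares were 59.0%, 69.1%, 61.0% and 48.2% at 8 weeks, and 74.1%, 77.5%, 76.2% and 90.5% at 1 week.

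Single libraries moved the counts of member genes that passed. At 4 weeks, leaving out Klf9KI replicate 1, 2 or 3 gave 136, 179 and 167 genes and leaving out Wt-Cre replicate 3 gave 601, and falls outnumbered rises in each case. At 8 weeks it was 140 without Klf9KI replicate 1 and 90, 87 and 116 without Wt-Cre replicate 1, 2 or 3. Without Klf9KI replicate 3 of 8 weeks there were 202 rises and 198 falls. At 1 week it was 24 and 32 without Klf9KI replicate 2 or 3, and 43 and 27 without Wt-Cre replicate 1 or 3. The libraries of 1 week differ in more than genotype. Klf9KI replicates 1 and 2 carried the female transcript Xist, at 710.1 and 607.3 CPM, and the other 4 libraries of that age carried the Y-linked Eif2s3y, at 57.47 to 75.48 CPM. Atrial Myl7 ranged between 2.8 and 438.6 CPM in Klf9KI hearts and between 217.6 and 1237 CPM in Wt-Cre hearts at 1 week. Leaving out the Xist libraries leaves 1 Klf9KI library, assumed to vary like the Wt-Cre libraries, and with sex as a covariate the genotype effect comes from that library too. In these fits 3 member genes and 1 member gene passed at 1 week, and sex and genotype cannot be told apart in the other Klf9KI libraries.

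Markers of some cell types, not all, moved with genotype at 4 and 8 weeks. None of 11 endothelial markers passed at either age, nor did any tested Schwann or neuronal marker. Of 8 smooth muscle and pericyte markers, 0 rose and 1 fell at 4 weeks, and 2 rose and 1 fell at 8 weeks. No gene of the cardiomyocyte, atrial, fibroblast or macrophage marker lists was assigned to the regions. The summed level of 10 fibroblast markers was 1860 to 2380 CPM in Klf9KI hearts and 1200 to 1660 CPM in Wt-Cre hearts at 4 weeks, and 1930 to 3090 CPM in Klf9KI hearts and 763 to 967 CPM in Wt-Cre hearts at 8 weeks, with 3 and 5 of 10 markers higher and 0 lower. The summed level of 10 macrophage markers was 480 to 747 CPM in Klf9KI hearts and 379 to 490 CPM in Wt-Cre hearts at 4 weeks, and 620 to 765 CPM in Klf9KI hearts and 385 to 506 CPM in Wt-Cre hearts at 8 weeks, with 2 and 4 of 10 higher. The atrial list, which includes Nppa, summed to 1490 to 2550 CPM in Klf9KI hearts and 134 to 201 CPM in Wt-Cre hearts at 4 weeks. Of 6 tested atrial markers 2 were higher, with a median log2 fold change of 0.39, while Myl7 stayed below 0.53 CPM in all 6 libraries of 4 weeks. At 8 weeks the sum was 1530 to 2390 CPM in Klf9KI hearts and 107 to 267 CPM in Wt-Cre hearts, with 2 of 6 higher and 1 lower. The share of each gene in these sums is not given here. The 12 cardiomyocyte markers summed to 52400 to 60400 CPM in Klf9KI hearts and 67900 to 76900 CPM in Wt-Cre hearts at 4 weeks, and 41500 to 44400 CPM in Klf9KI hearts and 54600 to 67700 CPM in Wt-Cre hearts at 8 weeks. Of these 12 markers, 4 fell at 4 weeks and 3 at 8 weeks, and 0 rose at either age. The part of these shifts in the RNA results was not tested.

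Falls were most frequent among genes of the strongest regions. In 4 equal groups by sham Avg Value, lowest to highest, at 4 weeks 52, 56, 59 and 93 of 803 to 808 genes fell and 36, 37, 22 and 22 rose. At 8 weeks 27, 42, 41 and 57 fell and 38, 28, 29 and 21 rose, and at 1 week 7, 16, 16 and 21 fell and 4, 3, 7 and 7 rose. The median FPKM of the groups was alike, at 6.02, 6.16, 6.29 and 5.72 at 4 weeks. The order was not tested, since the genes are not replicates. Split by the letters in the window instead, 56 of 632 genes with CACGCCC fell at 4 weeks (8.86%), against 85 of 1085 without it (7.83%). At 8 weeks 44 of 633 with the letters fell (6.95%), against 49 of 1085 without (4.52%), while 2.53% with and 4.7% without rose, so that 9.48% with and 9.22% without passed in all. At 1 week 2.8% with and 1.37% without fell, and rises were also more frequent with the letters, at 0.935% against 0.366%. In all, 3.74% with and 1.74% without passed at 1 week. Rises at 4 weeks were 3.16% with and 3.59% without. Over all genes 1.03%, 6.75% and 5.52% fell at 1, 4 and 8 weeks, and 0.651%, 6.65% and 4.96% rose. The 4-week groups also differed in Klf9 signal, with a median sham Avg Value of 29.63 with the letters and 24.25 without.

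**Figure D4:**
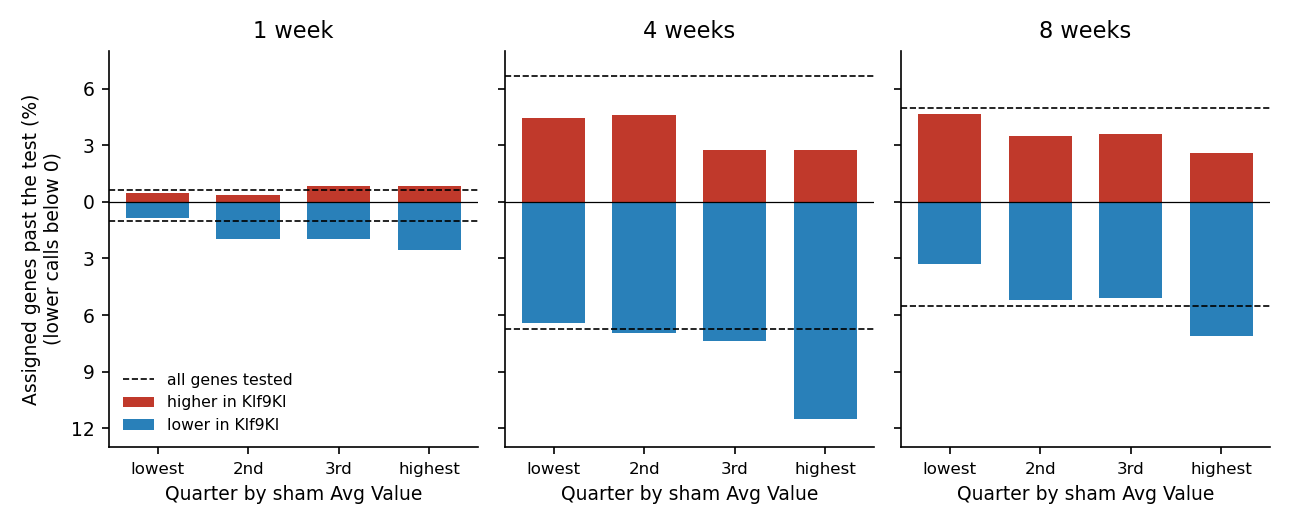
Share in percent of member genes that passed an adjusted p of 0.05 in edgeR (higher in Klf9KI above 0, lower in Klf9KI below 0) in 4 equal groups by the sham Avg Value of their region, at 1, 4 and 8 weeks. Dashed lines are the shares over all genes tested; at 4 weeks the falls number 52, 56, 59 and 93 in the groups, lowest to highest.

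The regions strongest in sham hearts did not always go with a change in RNA between Klf9KI and Wt-Cre hearts. Armc7 had 2.02, 1.37 and 2.718 CPM in Klf9KI hearts and 2.054, 1.721 and 0.9933 CPM in Wt-Cre hearts at 4 weeks. The groups overlapped, with a log2 fold change of 0.36 (SE 0.416, adjusted p = 0.648 in edgeR). Csk had 25.59, 23.61 and 31.32 CPM in Klf9KI hearts and 26.01, 25.12 and 23.67 CPM in Wt-Cre hearts, also overlapping (0.11, SE 0.148, adjusted p = 0.707 in edgeR). Of the nearest genes of the 10 strongest regions, Spryd7 passed at all 3 ages, Dbp at 1 and 4 weeks and Ccdc90b, a relative of the mitochondrial calcium uniporter regulator, at 4 weeks, each lower in Klf9KI hearts. Dscc1 was tested at 1 week only, where it did not pass, and the other 6 genes passed at no age. The share of all genes tested that passed was 1.68%, 13.4% and 10.5% at 1, 4 and 8 weeks.

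A total of 18 of 3201 member genes (0.562%) passed in the same direction at all 3 ages, against 67 of 13714 genes (0.489%) that passed at all 3 ages in all, so the share was near the background. With sex as a covariate, which leaves 1 Klf9KI library to carry the genotype effect, the 1 member gene that passed at 1 week was Klf9, which is not among the 18. Without the Xist libraries Sccpdh and Adssl1 were the only ones of the 18 that passed. Falls also outnumbered rises among all genes that passed in the same direction at all 3 ages, with 50 lower and 16 higher. Of the 18 member genes, 16 were lower in Klf9KI hearts and 2 higher. Of the 16 that fell, 12 had their own start nearest to the region: Acads, Sccpdh, Tcea3, Spryd7, Nadk2, Fdft1, Hdac11, Agpat2, Gja3, Txnrd3, Pgm2 and Blcap. Their regions had sham Avg Values of 17.43 to 86.32 with a median of 32.06, and 6 of 12 were above the upper quartile of the class, 31.88. The other 4, Phf24, Adssl1, Trim7 and Ybx2, lay at distances of -8917 (upstream) to 33015 bases from a region that sits at the start of another gene. Txnrd3, Pgm2, Blcap and Ybx2 are named here after their values were seen.

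Acads, which catalyses the first step of short-chain fatty acid oxidation in mitochondria, has a region over its start with an Avg Value of 66.86 in TAC and 73.55 in sham (chr5:115118980-115119682) and the 3 CACGCCC matches shown above. Its RNA was 33.23, 29.16 and 33.29 CPM in Klf9KI hearts and 149.1, 130.1 and 124.7 CPM in Wt-Cre hearts at 4 weeks. No library of either group came near the other, and the log2 fold change was -2.08 (SE 0.13, adjusted p = 4.16e-06 in edgeR). It was -1.05 at 1 week (SE 0.127, adjusted p = 0.000811 in edgeR) and -1.50 at 8 weeks (SE 0.192, adjusted p = 0.00093 in edgeR). With sex as a covariate, which leaves 1 Klf9KI library to carry the genotype effect, the 1-week change of Acads was -0.79 and its call was lost (adjusted p = 0.118 in edgeR). Without the Xist libraries it was also lost (adjusted p = 0.0643 in edgeR).

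Sccpdh, a saccharopine dehydrogenase-like protein of lipid droplets, has a region with 64.44 in TAC and 59.72 in sham (chr1:179667951-179668531). Its RNA was 18.41, 14.61 and 15.56 CPM in Klf9KI hearts and 77.7, 86.2 and 64.48 CPM in Wt-Cre hearts at 4 weeks, without overlap. Sccpdh fell by 1.01 at 1 week (SE 0.107, adjusted p = 0.000265), by 2.23 at 4 weeks (SE 0.154, adjusted p = 6.35e-06) and by 1.82 at 8 weeks (SE 0.22, adjusted p = 0.000718), all log2 values in edgeR. In the Klf9KI library without Xist, the 1-week change of Sccpdh against Wt-Cre was -0.97 in log2, and with sex as a covariate its call was lost (adjusted p = 0.063 in edgeR).

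Spryd7 (83.2 in TAC and 86.32 in sham) had 19.83, 24.92 and 15.29 CPM in Klf9KI hearts and 54.08, 61.51 and 37.33 CPM in Wt-Cre hearts at 4 weeks. Its libraries did not overlap, and it fell by 1.35 in log2 at 4 weeks (SE 0.217, adjusted p = 0.00257 in edgeR) and by 1.51 at 8 weeks. Nadk2, the mitochondrial NAD kinase, listed in the region table under its older symbol Nadkd1, has a region 827 bases inside the gene with 91.65 in TAC and 80.18 in sham. It had 22.0, 25.96 and 20.66 CPM in Klf9KI hearts and 75.13, 67.7 and 63.57 CPM in Wt-Cre hearts at 4 weeks, a fall of 1.59 (SE 0.137, adjusted p = 3.3e-05 in edgeR). Tcea3, a transcription elongation factor of muscle, has a region with 41.88 in TAC and 53.75 in sham, and its RNA fell by 1.89 at 4 weeks (SE 0.152, adjusted p = 1.91e-05 in edgeR). Agpat2, which makes phosphatidic acid for triglycerides and phospholipids, and Fdft1, squalene synthase, have weaker regions, with 22.12 in TAC and 26.38 in sham at Agpat2 and 19.64 in TAC and 22.09 in sham at Fdft1, and their log2 falls at 4 weeks were -1.59 and -1.57 (SE 0.214 and 0.154, adjusted p = 0.000766 and 8.22e-05 in edgeR).

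The only gene that rose at all 3 ages with its own start at the region was Slc2a1, the basal glucose transporter GLUT1, whose region had 25.91 in TAC and 28.64 in sham. It had 28.61, 20.55 and 19.94 CPM in Klf9KI hearts and 12.52, 10.51 and 11.46 CPM in Wt-Cre hearts at 1 week, and 33.6, 35.87 and 29.96 CPM in Klf9KI hearts and 14.72, 11.18 and 12.09 CPM in Wt-Cre hearts at 4 weeks. At 8 weeks it had 49.08, 42.13 and 22.64 CPM in Klf9KI hearts and 18.55, 19.31 and 20.02 CPM in Wt-Cre hearts. The groups overlapped at no age, though the lowest Klf9KI library of 8 weeks lay just above the highest Wt-Cre library. The log2 rises of Slc2a1 were 1.00, 1.39 and 0.98 (SE 0.188, 0.158 and 0.271, adjusted p = 0.0147, 0.000238 and 0.0425 in edgeR). With sex as a covariate the 1-week change of Slc2a1 was 0.79 and its call was lost (adjusted p = 0.361 in edgeR), as it was without the Xist libraries (adjusted p = 0.28 in edgeR). Aldh1l1, the other riser, lies 54063 bases from its listed region, which sits at Slc41a3.

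**Figure D5:**
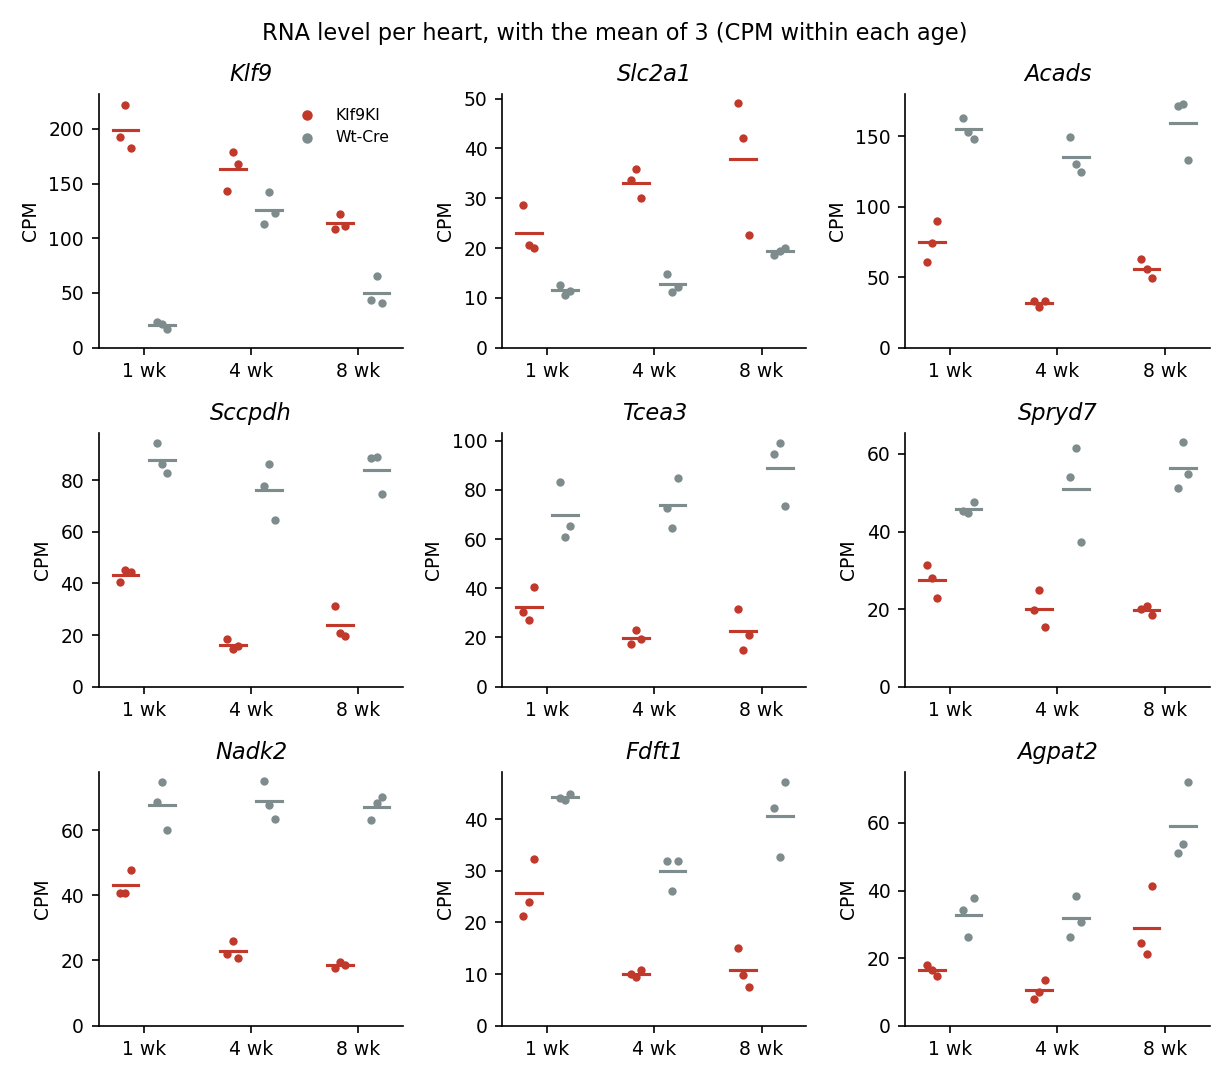
RNA level in CPM (vertical axes, from 0) in each heart at 1, 4 and 8 weeks for Klf9 and 8 nearest genes of single CpG-island promoter regions, Klf9KI in red left of Wt-Cre in grey, with lines at the mean of 3. Acads, Sccpdh, Tcea3, Spryd7, Nadk2, Fdft1 and Agpat2 are lower in Klf9KI hearts at every age and Slc2a1 higher, while the difference of Klf9 itself is smallest at 4 weeks.

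At 4 weeks, among genes nearest the start whose higher group mean reached 5 CPM, the largest falls were in Dbp, Zbtb16, Gja3, Sccpdh and Hlf, and the largest rises in Mthfd2, Plcxd2 and Usp18. Dbp had 2.32, 3.066 and 3.465 CPM in Klf9KI hearts and 9.498, 24.35 and 62.91 CPM in Wt-Cre hearts, a log2 fold change of -3.44 (SE 0.748, adjusted p = 0.0345 in edgeR) over Wt-Cre libraries that themselves spread widely. Zbtb16, the transcription factor PLZF and a glucocorticoid-responsive gene, had 6.51, 9.719 and 7.27 CPM in Klf9KI hearts and 17.8, 84.39 and 96.68 CPM in Wt-Cre hearts (-3.08, SE 0.67, adjusted p = 0.038 in edgeR). Wt-Cre replicate 1 was the lowest Wt-Cre library for both genes. Gja3, the gap-junction protein connexin 46, had 4.565, 3.653 and 3.873 CPM in Klf9KI hearts and 30.03, 25.55 and 17.55 CPM in Wt-Cre hearts (-2.60, SE 0.228, adjusted p = 3.77e-05 in edgeR).

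Mthfd2, a mitochondrial folate enzyme of the integrated stress response, had 55.67, 60.27 and 51.03 CPM in Klf9KI hearts and 2.738, 4.473 and 1.573 CPM in Wt-Cre hearts at 4 weeks (4.25, SE 0.275, adjusted p = 6.35e-06 in edgeR). Its region had 23.7 in TAC and 12.6 in sham. Usp18, which removes ISG15 and dampens interferon signalling, had 62.63, 58.18 and 50.21 CPM in Klf9KI hearts and 7.188, 3.441 and 2.566 CPM in Wt-Cre hearts (3.70, SE 0.307, adjusted p = 7.29e-05 in edgeR), at a region with 59.73 in TAC and 65.0 in sham. Both rises were again seen at 8 weeks, at 2.1 for Mthfd2 and 1.97 for Usp18 (SE 0.262 and 0.303, adjusted p = 0.000807 and 0.0027 in edgeR).

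At 8 weeks, among genes nearest the start whose higher group mean reached 5 CPM, the largest falls were in P2ry1, Cmss1, Wnk2 and Gja3, and the largest rises in Gdf6 and Map1a. Farther from their regions, Trim7, Ybx2 and Phf24 fell by 2.63, 2.59 and 2.49 in log2. P2ry1, a purine receptor, had 3.847, 3.818 and 2.925 CPM in Klf9KI hearts and 30.78, 31.38 and 31.76 CPM in Wt-Cre hearts (-3.15, SE 0.234, adjusted p = 7.2e-05 in edgeR). Cmss1, at a region with 56.92 in TAC and 54.54 in sham, had 13.37, 8.59 and 15.27 CPM in Klf9KI hearts and 65.78, 69.81 and 70.81 CPM in Wt-Cre hearts (-2.47, SE 0.234, adjusted p = 0.000197 in edgeR). Gdf6, a growth factor of the BMP family, had 12.53, 15.75 and 9.828 CPM in Klf9KI hearts and 0.4217, 0.2785 and 0.9206 CPM in Wt-Cre hearts (4.51, SE 0.461, adjusted p = 0.000275 in edgeR). The groups of all 3 genes lie far apart. Map1a, a microtubule-associated protein, rose at 4 weeks (1.42, SE 0.183, adjusted p = 0.000579 in edgeR) and at 8 weeks (2.53, SE 0.299, adjusted p = 0.000626 in edgeR).

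The gene lists were met unevenly by the regions. Over 37 lists, 289 of 1094 distinct genes (26.4%) were assigned to a region, against 3293 of 16389 genes tested at any age (20.1%). The circadian clock list had 14 of 22 genes assigned. Of these 14, 2 fell and 0 rose at 1 week, 6 fell and 0 rose at 4 weeks, and 1 fell and 1 rose at 8 weeks. Over the whole list 7 of 22 fell and 0 rose at 4 weeks, while 6.75% of all genes fell at that age. Hlf, a clock-output factor related to Dbp, fell by 2.23 at 4 weeks (SE 0.242, adjusted p = 0.000204 in edgeR) and by 1.56 at 8 weeks (SE 0.35, adjusted p = 0.0177 in edgeR). Nr1d2, the repressor REV-ERB beta, had 53.9 ± 3.15 CPM in Klf9KI hearts and 144 ± 58.4 CPM in Wt-Cre hearts at 4 weeks (SD, n = 3 each), a fall of 1.42 (SE 0.279, adjusted p = 0.0106 in edgeR). The hour at which hearts were taken was not given in the sources used here.

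Fatty acid uptake and beta-oxidation had 12 of 30 genes assigned. Of these 12, 1 fell in hearts of 1 week, 7 in those of 4 weeks and 7 in those of 8 weeks. None of them passed upward at any age, while over the whole list 19 of 30 fell at 4 weeks and 18 at 8 weeks. Over all genes 1.03% fell at 1 week, 6.75% at 4 weeks and 5.52% at 8 weeks. Beside Acads, Echs1, the enoyl-CoA hydratase, fell by 1.10 at 4 weeks (SE 0.135, adjusted p = 0.000399 in edgeR) and by 1.3 at 8 weeks (SE 0.206, adjusted p = 0.0032 in edgeR). Cpt2, the inner-membrane carnitine palmitoyltransferase, fell by 1.07 at 4 weeks (SE 0.147, adjusted p = 0.000861 in edgeR) and by 1.2 at 8 weeks (SE 0.176, adjusted p = 0.00204 in edgeR), and its region had 46.93 in TAC and 45.53 in sham. Glycolysis and glucose uptake had 10 of 23 genes assigned, with 1 higher and 3 lower at 4 weeks. Over the whole list 3 rose and 3 fell, and over all genes 6.65% rose and 6.75% fell. Slc2a4, the insulin-responsive glucose transporter GLUT4, had 153.3, 170.0 and 136.7 CPM in Klf9KI hearts and 379.8, 353.0 and 350.0 CPM in Wt-Cre hearts at 4 weeks (-1.24, SE 0.133, adjusted p = 0.000162 in edgeR), the opposite direction to Slc2a1. At 8 weeks Slc2a4 fell by 1.53 (SE 0.176, adjusted p = 0.000539 in edgeR), and its region had 46.38 in TAC and 51.15 in sham.

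In respiratory complexes II to V, 4 of 9 assigned genes fell at 8 weeks, beside 21 of 42 over the whole list and 5.52% of all genes. In branched-chain amino acid breakdown it was 3 of 5, beside 10 of 23. In lipid storage and triglyceride synthesis 2 of 3 assigned genes fell at 4 weeks, beside 12 of 21 tested and 6.75% of all genes. The Krueppel-like and Sp factor list had 10 genes assigned, and of these only Klf9 and Klf13 passed at any age. The whole list had 2 higher and 1 lower of 19 tested at 1 week. It had 1 higher and 2 lower of 17 at 4 weeks, and 1 higher and 1 lower of 18 at 8 weeks. Among all genes tested 1.68%, 13.4% and 10.5% passed at 1, 4 and 8 weeks. Klf13 fell by 0.53 at 1 week and by 0.69 at 4 weeks (SE 0.122 and 0.179, adjusted p = 0.0435 and 0.0262 in edgeR). Of 8 assigned genes of the glucocorticoid receptor pathway, Zbtb16 fell at 4 weeks and the chaperone gene Hsp90aa1 rose (0.99, SE 0.172, adjusted p = 0.00335 in edgeR). At 8 weeks 1 of the 8 rose and 0 fell. The whole list of 16 had 1 higher and 3 lower at 4 weeks, and 1 higher and 1 lower at 8 weeks. The shares of all genes were 6.65% higher and 6.75% lower at 4 weeks, and 4.96% and 5.52% at 8 weeks. Of 7 assigned calcium-handling genes, Hrc, Micu2 and Camk2g fell at 4 weeks, beside 10 of 28 over the whole list and 6.75% of all genes, the largest by 1.3 in Hrc, the histidine-rich calcium-binding protein of the sarcoplasmic reticulum (SE 0.157, adjusted p = 0.000353 in edgeR), 4420 bases from its region. The call of Camk2g was lost under 7 of 13 alternatives. Respiratory complex I had 4 of 37 genes assigned, of which 2 fell at 8 weeks, and over the whole list 20 of 37 fell, against 5.52% of all genes. The interferon list had 3 genes assigned, among them Usp18, described above. Of these 3, 2 rose at 4 weeks and 1 at 8 weeks. The whole list rose as well, with 23 of 25 genes at 4 weeks and 14 of 25 at 8 weeks, against 6.65% and 4.96% of all genes. The extracellular matrix list had 2 assigned, Col15a1 and Tgfb1, which both rose at 8 weeks (1.56 and 1.10, SE 0.342 and 0.204, adjusted p = 0.016 and 0.0073 in edgeR), beside 31 of 34 genes of the whole list and 4.96% of all genes. Col15a1 passed in the opposite direction at 1 week, with a log2 fold change of -0.62. That call was lost under 9 of 16 alternatives. The fetal and cardiac stress list had 0 genes assigned.

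The genotype effect of member genes differed between ages about as often as that of all genes. In a fit of all 18 libraries, 33 of 3305 member genes had an effect that differed between 4 weeks and 1 week (0.998%, against 1.15% of all genes). The count was 18 between 8 and 4 weeks (0.545%, against 0.48%) and 323 between 8 weeks and 1 week (9.77%, against 9.45%), of which 139 were more positive and 184 more negative at 8 weeks. Each age was a separate set of mice, so age cannot be told apart from any batch that followed it. The counts moved with single libraries. Between 8 weeks and 1 week the count was 525 without Klf9KI replicate 3 of 8 weeks, 181 and 209 without Klf9KI replicate 2 or 3 of 1 week, and 195 without Wt-Cre replicate 3 of 1 week. Between 8 and 4 weeks it was 123 without Klf9KI replicate 3 of 8 weeks and 7, 4 and 7 without Klf9KI replicate 1, 2 or 3 of 4 weeks. It was 7 without Wt-Cre replicate 2 of 4 weeks and 5 without Wt-Cre replicate 1 or 2 of 8 weeks. Between 4 weeks and 1 week it was 15 and 20 without Klf9KI replicate 1 or 3 of 4 weeks, 19 without Klf9KI replicate 3 of 1 week, 17 without Wt-Cre replicate 3 of 1 week and 50 without Klf9KI replicate 2 of 8 weeks.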

How the data were processed

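Chromatin was profiled in 1 TAC and 1 sham heart library, and RNA in 18 heart libraries, 3 for each of Klf9KI and Wt-Cre at 1, 4 and 8 weeks. The signal per merged region (Avg Value, Peak Value), the presence calls, the promoter and CpG-island counts and the gene lists were deposited by the authors, per the file headers. The deposited log2 column of the authors equals the log2 ratio of TAC to sham Avg Value. The scaling between libraries was not stated. Raw counts per gene and library were deposited by the authors, per the file headers, and are the values tested. FPKM values, per the file headers, served only to describe levels. The submitters' processing notes name BWA and MACS2 2.1.0 beside DESeq2 1.20.0, featureCounts 1.5.0-p3, StringTie 1.3.3b, HISAT2 2.0.5, fastp and the build mm10. The labels call the RNA total RNA in titles, describe poly-A selection in protocols and name both strand options, so counts of overlapping antisense genes and near-identical copies are uncertain. A further 18 deposited columns of normalised signal were not used.

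Summed counts per library were 17225388 to 32855383 at 1 week, 12086856 to 14890828 at 4 weeks and 12543825 to 19912542 at 8 weeks. Each age was fitted alone with edgeR 4.0.16 in R 4.3.3 (filterByExpr, TMM, robust quasi-likelihood), with Benjamini-Hochberg adjustment over all genes tested and a threshold of 0.05. CPM values use TMM library sizes within an age, except the means beside differences between ages, which use those of the fit of all 18 libraries. GEO lists each RNA group as 1 sample of 3, with no litter or culture, so p-values measure the spread between these libraries. Replicate numbers were taken from the columns and do not pair the samples. Region symbols were matched to genes by symbol (3319) or synonym (175). Motifs were counted on both strands of RefSeq promoter windows (GRCm38.p6). Region ends are as deposited. Named are the genes of the 10 strongest regions and of the 5 largest TAC ratios each way. At each age they are the 10 largest rises and 10 largest falls past the threshold whose groups do not overlap and whose higher mean reaches 5 CPM, and likewise among genes nearest the start, a choice added later. Up to 10 genes past the threshold at all ages, the 5 largest age differences each way and up to 3 genes per list complete them. The windows of Acads, Sccpdh, Slc2a1 and Klf9 and the genes of the CPM plot were chosen after their values were seen. Some genes that the rule names are not reported here. The scripts were tested on simulated data. The regions and gene lists were chosen with earlier results of these data known.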

Additional observations from a re-analysis of the deposited data

Results flagged for a closer look

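The genotype effect of member genes differed between ages, by a test of the difference in 1 edgeR fit of all 18 libraries, in 33 genes between 4 weeks and 1 week, in 18 between 8 and 4 weeks and in 323 between 8 weeks and 1 week. Genes among those with the largest differences in each direction between 8 weeks and 1 week follow as log2 values, with CPM means of the 3 libraries per group on the scale of that fit, which differs from the scale within an age. Plcxd2 had a difference of 5.33 (SE 1.11, adjusted p = 0.00462), Gdf6 4.88 (SE 1.1, adjusted p = 0.00879) and Lrp8, an apolipoprotein E receptor 77453 bases from its region, 4.66 (SE 0.929, adjusted p = 0.00455), all in edgeR. Levels were low in some groups. In Klf9KI and Wt-Cre hearts at 1 week Plcxd2 had 0.516 and 1.11 CPM, Gdf6 1.63 and 2.09 CPM and Lrp8 2.18 and 1.68 CPM. At 8 weeks, in the same order, Plcxd2 had 5.37 and 0.283 CPM, Gdf6 14.8 and 0.637 CPM and Lrp8 38.1 and 1.2 CPM. Knl1, a kinetochore gene, had 4.53 (SE 1.38, adjusted p = 0.0443 in edgeR), but its levels at 8 weeks were 1.8 CPM in Klf9KI and 0.0666 CPM in Wt-Cre hearts. Its call was lost under 13 of 23 alternatives.

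On the other side, Meig1 had -4.70 (SE 1.24, adjusted p = 0.0215 in edgeR). All Wt-Cre libraries of 1 week had 0 counts of Meig1 and the Klf9KI ones a mean of 0.173 CPM, so the size of its difference depends on the prior count. Ppil6 had -3.31 (SE 0.903, adjusted p = 0.0239) and Crybb1 -3.30 (SE 0.82, adjusted p = 0.0141), both in edgeR, at 28972 and 20794 bases from their regions. Both were low in some groups. In Klf9KI and Wt-Cre hearts Ppil6 had 4.25 and 1.76 CPM at 1 week and 0.26 and 1.05 CPM at 8 weeks. Crybb1 had 0.424 and 0.423 CPM at 1 week and 0.454 and 4.64 CPM at 8 weeks. The calls of Meig1 and Ppil6 were each lost under 5 of 23 alternatives. P2ry1 had -2.77 (SE 0.407, adjusted p = 0.000292 in edgeR), with 4.1 CPM in Klf9KI and 37.0 CPM in Wt-Cre hearts at 8 weeks. Kyat3, a kynurenine aminotransferase, had -2.70 (SE 0.398, adjusted p = 0.000304 in edgeR), with 9.47 CPM in Klf9KI and 3.02 CPM in Wt-Cre hearts at 1 week, and 13.3 CPM in Klf9KI and 27.6 CPM in Wt-Cre hearts at 8 weeks. Klf9KI replicates 1 and 2 of 1 week carried Xist, and their part in these differences was not tested.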

How the results depend on the processing

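Of the counts of genes past the threshold, those of 1 week moved most. In place of 81 member genes, 151 passed with DESeq2 1.42.0, 172 without a filter on low counts, 45 without robust shrinkage, 16 with log2 CPM of Myl7 as a covariate, 1 with sex as a covariate, 3 without the Xist libraries, 13 in the fit of all 18 libraries, 17 at a 2-fold limit and 43 for regions that list 1 gene. Leaving out 1 replicate gave 24 to 58 at 1 week, 136 to 601 at 4 weeks and 87 to 423 at 8 weeks. In the lowest of 4 equal groups by sham signal 29 genes passed at 1 week with DESeq2, against 11 in edgeR. At 4 weeks the count was 115 at a 2-fold limit, 202 for regions that list 1 gene and 208 for regions above the median sham signal. At 8 weeks it was 159, 155 and 156 under those choices and 692 in the fit of all 18 libraries. For differences between ages, leaving out 1 replicate gave 15 to 50 (4 weeks against 1 week), 4 to 123 (8 against 4 weeks) and 181 to 525 (8 weeks against 1 week), and DESeq2 gave 64 and 83 for 4 weeks against 1 week and 8 against 4 weeks. The cause of these shifts was not tested, except that the 2-fold limit, the 1-gene regions and the regions above the median take fewer genes by construction.

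Of the chromatin values, 39.4% of regions were higher after TAC by Peak Value and 50.9% after recentring on all regions. Regions past 1.5-fold numbered 217 higher and 224 lower after recentring, 28 and 67 among regions called in both libraries, and 23 and 61 at a 2-fold limit. With the first window of each nearest gene, overlapping or not (2139 windows), 78.3% held GGGCGG and 30.3% CACGCCC. With a replicate block 56, 544 and 368 member genes passed at 1, 4 and 8 weeks, and 40, 16 and 359 differed between ages (4 against 1, 8 against 4, 8 against 1). Same-numbered samples had correlations of -0.106 to 0.218, and at 8 weeks, not at 1 or 4 weeks, every sample correlated best with its own number. Over named genes that passed, 351 of 544 alternative values at 1 week, 804 of 923 at 4 weeks, 676 of 741 at 8 weeks and 204 of 230 for 8 weeks against 1 week kept their side of the threshold, and 0 changed sign. Among falls and rises described above, calls at 1 week were lost under 10 of 16 alternatives for Klf13, 8 for Dbp and Hdac11, 7 for Fdft1 and Spryd7, 5 for Slc2a1 and Agpat2 and 4 for Nadk2. At 4 weeks they were lost under 7 of 13 for Zbtb16 and Camk2g and 4 for Dbp, and at 8 weeks under 4 of 13 for Slc2a1 and Agpat2 and 3 for Col15a1 and Hlf. The chromatin comparison rests on 1 library per condition, and the depth of those libraries was not given in the sources used here.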
